A study of Mus musculus with 39 samples.

Results

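The genes described here encode the subunits of RNA polymerases I, II and III and of the Mediator complex. They are the rows of both TPM tables whose symbol begins with Polr1, Polr2 or Polr3 followed by a letter, or is Med followed by a number with or without a final l, together with Ccnc, Cdk8 and Cdk19. This name rule, which uses no measured value, gave 61 of the 13230 genes listed for both gradients, 28 of them polymerase subunits and 33 Mediator subunits, and no symbol matched in 1 table only. ATLAS-Seq separated liver homogenate of wild-type FVB female mice by sedimentation and sequenced the RNA of each fraction. The tissue was homogenized with ceramic beads in buffered sucrose without detergent, nuclei were spun out, and the rest was resolved on a 10-50% sucrose gradient, so that light material stayed in low fraction numbers and dense material moved to high ones. Gradients 1 and 2 come from different mice and are the 2 biological replicates, with 17 libraries (fractions 4 to 19 and 21) and 22 libraries (fractions 3 to 24). All 39 libraries share this genotype and tissue, so only fraction and gradient set them apart, and the age of the mice is not given in the sources used here.

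RNA polymerase I makes the precursor of the large ribosomal RNAs, polymerase II makes messenger RNAs, and polymerase III makes transfer RNAs and other short RNAs. Each enzyme has a pair of very large catalytic subunits surrounded by small subunits, some of them common to all of these enzymes, and Mediator, built of head, middle and tail modules around a backbone, passes signals from activators to polymerase II and can carry a detachable kinase module. All of these proteins work in the nucleus, but their mRNAs are translated in the cytoplasm, and it is the position of these mRNAs in the cytoplasmic homogenate that was measured.

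Levels are TPM values, which are scaled by transcript length and to a constant total and give the share of an RNA in the RNA of its fraction. A rise of abundant RNAs therefore lowers the others, and the homogenate holds the RNA of all liver cell types together. Totals lay between 998099 and 999202 TPM, the number of reads behind a value is unknown, and only the difference of the gradients shows how precise a value is. For tests, fractions 4 to 7 were taken as the light zone, 10 to 13 as the middle zone and 16 to 19 as the dense zone, and log2(TPM + 1) was averaged over the 4 fractions of a zone in each gradient, which leaves n = 2 zone means a zone. Changes are differences of these means and understate the fold of genes of low level. All 61 members passed the filter of a mean of at least 1 TPM and were among the 11754 genes tested. The 8 hepatocyte markers were present, with a summed level of 27340 to 60030 TPM in the light zone, 8841 to 16560 TPM in the middle zone and 11270 to 25450 TPM in the dense zone. The nuclear RNAs Malat1, Neat1 and Kcnq1ot1 summed to 180 to 782 TPM in the light zone, 27.7 to 69.7 in the middle zone and 15.4 to 29.4 in the dense zone, all 3 lower in the dense zone. Kupffer cell markers summed to 116 to 169 TPM in the light and 41.3 to 53.6 TPM in the dense zone (5 of 6 lower), sinusoidal endothelial markers to 34.8 to 68.8 and 15.1 to 33.9 TPM (3 of 4 tested lower), and stellate cell markers to 29.3 to 75.3 and 9.17 to 19.9 TPM (3 of 4 tested lower, Col1a1 not listed). Erythroid markers summed to 258 to 496 and 66.4 to 106 TPM (2 of 3 lower, Hbb-bs and Hbb-bt not listed). Cholangiocyte markers summed to at most 8.11 TPM in every library, with Epcam not listed. The part of nuclear RNA and of other cell types in the results for the members was not tested.

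The members spread over the whole gradient, and most were highest in its middle. The zone of highest mean TPM was the middle zone in both gradients for 32 members (52.5%), the dense zone for 13 (21.3%) and the light zone for 11 (18.0%), and it differed between the gradients for the remaining 5. Over all genes tested, 24.4% were highest in the middle, 21.2% in the dense and 42.7% in the light zone. The summed TPM of the 61 members was 1437 and 1351 in the light zone of gradients 1 and 2, 2317 and 2084 in the middle zone, and 1311 and 1054 in the dense zone. The sum was thus highest in the middle zone of each gradient, for the polymerase subunits (1471 and 1385 TPM, against 883 and 889 in the light zone) as for the Mediator subunits (846 and 699, against 554 and 462).

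In the middle against the light zone, 27 members were higher (44.3%, against 23.5% of all genes tested) and 8 were lower (13.1%, against 24.1%) in limma at a Benjamini-Hochberg adjusted p under 0.05. The median change of the 61 members was 0.65 on the log2 scale, against 0.05 over all genes. Blocking on the gradient gave 38 higher (62.3%, against 37.2% of all genes in that fit) and 10 lower (16.4%, against 35.0%), and quantile normalization 33 higher (54.1%, against 26.9%) and 9 lower (14.8%, against 24.2%). Without any 1 of the light or middle zone means fewer members were called in each direction, and fewer of all genes were called. The median change of the members was then 0.62 to 0.84. In the dense against the middle zone, 33 members were lower (54.1%, against 22.5% of all genes) and 0 were higher in limma (against 4.79%), with a median change of -0.93 against -0.28. At an unadjusted p under 0.05, 2 members were higher and 35 lower, against 1043 and 3699 of the 11754 genes tested. With the gradient as a block in limma 7 were higher (11.5%, against 14.1% of all genes in that fit) and 36 lower (59.0%, against 39.3%). After quantile normalization 4 were higher (6.56%, against 10.3%) and 24 lower (39.3%, against 13.7%). Without the middle zone mean of either gradient, limma called 0 of all genes in this comparison. The median change of the members was then -0.83 (without that of gradient 1) and -0.97 (without that of gradient 2).

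In the dense against the light zone, 15 members were higher (24.6%, against 22.3% of all genes) and 19 were lower (31.1%, against 39.6%), and the median change was 0.06 against -0.43 over all genes. Both shares lay near those of all genes. Relative to the median of all genes the members' median was 0.49 higher. Quantile normalization moved the median of all genes to -0.05 and gave 26 higher (42.6%, against 30.7% of all genes in that fit) and 15 lower members (24.6%, against 29.9%) with a median of 0.37. The gradient as a block gave 25 higher (41.0%, against 30.5% of all genes) and 23 lower (37.7%, against 50.0%). Without the light zone mean of gradient 2 fewer members were called higher, and fewer of all genes were called. The median change of the members was then 0.06.

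**Figure D1:**
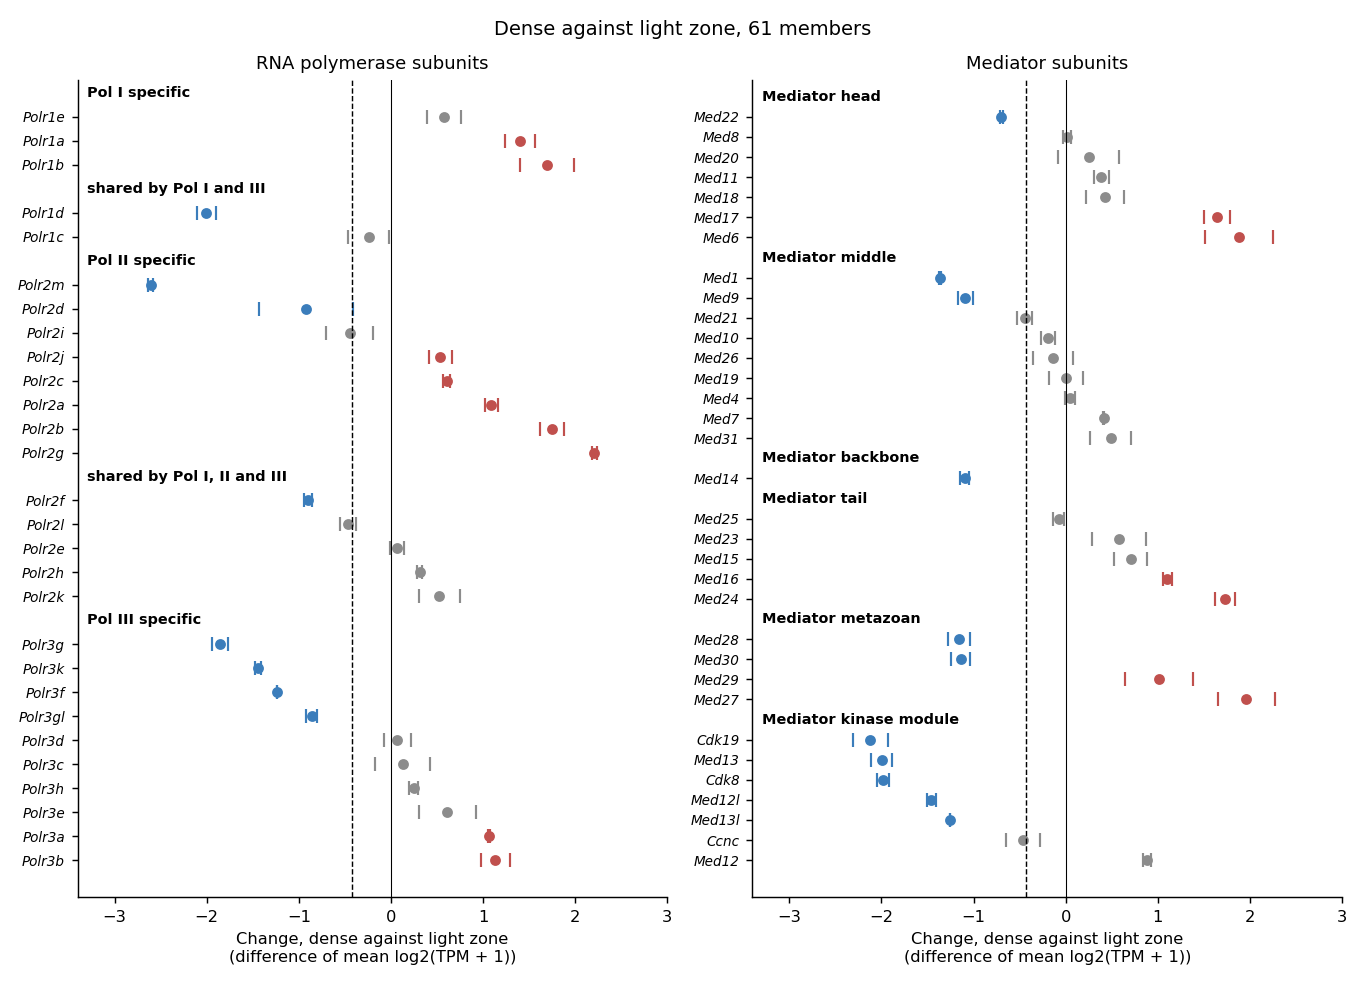
Change of each member from the light to the dense zone, as the difference of mean log2(TPM + 1), grouped by role. Dots are the means of 2 gradients and ticks the value of each gradient, red and blue dots passed limma at an adjusted p under 0.05 (15 higher, 19 lower), gray dots did not, and the dashed line is the median of all genes tested (-0.43). The largest subunits of all 3 polymerases lie on the right, and the kinase module lies on the left apart from Med12.

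The catalytic subunits had a common pattern. The largest and second largest subunits of RNA polymerase I (Polr1a, Polr1b), II (Polr2a, Polr2b) and III (Polr3a, Polr3b), which together form the active site of each enzyme, were all highest in the dense zone of both gradients (against 21.2% of all genes tested). All 6 were higher there than in the light zone (against 22.3% of all genes), with a median change of 1.27. Over the fractions their profiles had a median Pearson R of 0.892 between the 15 pairs in gradient 2 and 0.887 in gradient 1, where the pairs share the libraries. Over all 1830 pairs of members these medians were 0.349 and 0.228.

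Polr2b (chr5:77310147-77349324, plus strand, in the GENCODE M21 annotation of GRCm38, the assembly called mm10) was at 11.2 to 28.9 TPM in the 8 light libraries (median 15.1), 42.4 to 60.6 in the middle (median 48.9) and 49.3 to 67.4 in the dense zone (median 54.4). The light libraries did not overlap with those of the other zones, while middle and dense did overlap. Its mean TPM was 3.32-fold higher in the dense than in the light zone, a change of 1.75 ± 0.18 (SE, n = 2, limma, adjusted p = 0.000736). Polr1b ran from 2.84 to 6.34 TPM in the light zone (median 4.83) and from 11.5 to 24.3 in the dense zone (median 17.1), without overlap. Its change was 1.69 ± 0.35 (SE, n = 2, limma, adjusted p = 0.00806), and without the light zone mean of gradient 2 the adjusted p was 0.0641. Polr1a lay at 2.53 to 7.77 TPM in the light zone (median 5.02) and 11.3 to 19.6 in the dense zone (median 14.0), a change of 1.40 (limma, adjusted p = 0.00529).

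Polr3a was at 3.41 to 8.99 TPM in the light zone (median 6.49) and 11.2 to 16.5 in the dense zone (median 14.0), and Polr3b at 6.93 to 14.1 (median 10.6) and 18.2 to 32.1 (median 24.4). Neither overlapped between these zones, and the changes were 1.06 (limma, adjusted p = 0.00865) and 1.13 (limma, adjusted p = 0.0146). Polr2a (chr11:69733997-69758637, minus strand) was the exception to this separation, with 11.2 to 35.0 TPM in the light zone (median 17.5) and 29.8 to 52.8 in the dense zone (median 37.0), so that the zones overlapped over both gradients together. Within a gradient they did not, with 12.6 to 35.0 TPM (light) and 41.7 to 52.8 TPM (dense) for Polr2a in gradient 1 and 11.2 to 22.4 and 29.8 to 32.3 TPM in gradient 2. Its change of 1.09 ± 0.33 (SE, n = 2) passed limma with an adjusted p of 0.0293, and of 0.00035 with the gradient as a block. The call of Polr2a was lost without the light zone mean of gradient 1 (adjusted p = 0.0654), without the dense zone mean of gradient 1 (0.114) and without the light zone mean of gradient 2 (0.163). For Polr3b the corresponding values were 0.0585, 0.0535 and 0.096, and Polr3a had 0.0685 without the light zone mean of gradient 2.

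Between the middle and the dense zone 0 of these 6 passed limma (4.79% of all genes were higher), with changes of 0.13 to 0.56. At an unadjusted p under 0.05, 0 of the 6 passed too, while 1043 of the 11754 genes tested were higher. From the light to the middle zone Polr2b changed by 1.54 (limma, adjusted p = 0.00209), Polr1b by 1.18 (0.0372) and Polr1a by 0.84 (0.0415), and Polr2a by 0.96 (0.0542), Polr3b by 0.78 (0.063) and Polr3a by 0.56 (0.0878). With the gradient as a block in limma, all 6 were higher in the middle than in the light zone (against 37.2% of all genes in that fit), and 3 of 6 were higher in the dense than in the middle zone (against 14.1%). In the bottom fractions, 22 to 24, which only gradient 2 holds, the profiles of Polr1a, Polr1b, Polr2a and Polr2b had their highest value. These peaks lay at fractions 23, 24, 24 and 22, each in 1 library. Polr1b was at 14.5 TPM in fraction 24 and at 14.0 in fraction 21. Of all 61 members, 6 peaked in fractions 22 to 24 (9.84%), against 10.25% of all genes tested.

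**Figure D2:**
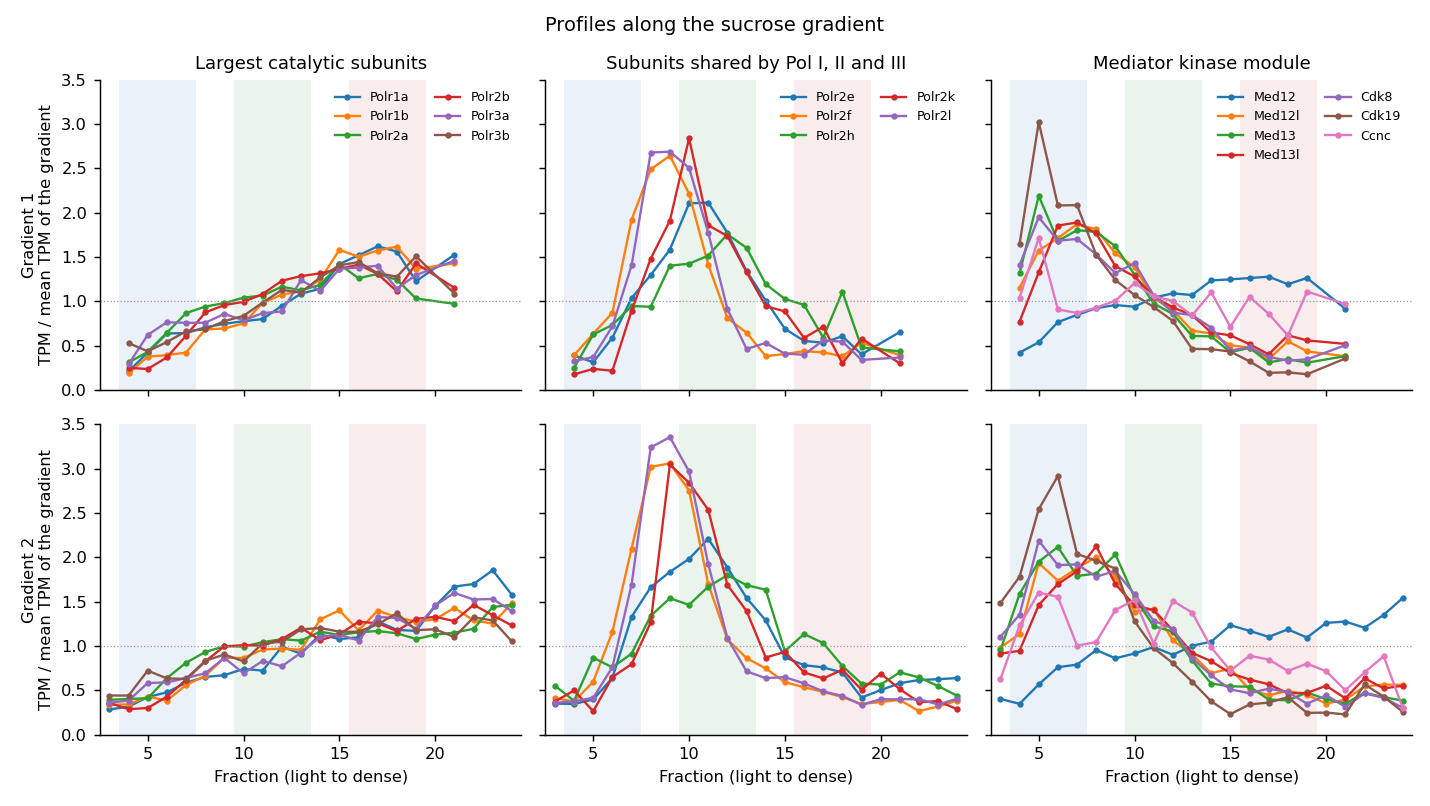
Relative TPM (the level of a gene over its own mean in that gradient), plotted against the fraction number (light to dense) for gradient 1 (top) and gradient 2 (bottom). The shaded bands are the light, middle and dense zones. The 6 largest catalytic subunits climb from the light to the dense zone, the 5 subunits shared by all polymerases peak between fractions 9 and 12, and the kinase module of Mediator falls after fractions 5 to 8 except for Med12 and, in part, Ccnc.

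The 5 small subunits shared by polymerases I, II and III, Polr2e, Polr2f, Polr2h, Polr2k and Polr2l, had another pattern. All 5 were highest in the middle zone of both gradients (against 24.4% of all genes tested). All 5 were higher there than in the light zone (against 23.5%, median change 1.29) and all 5 were lower in the dense than in the middle zone (against 22.5%, median change -1.51). After quantile normalization 4 of 5 passed in each of these comparisons, against 26.9% and 13.7% of all genes in that fit. Polr2k, a zinc-binding subunit, was at 9.53 to 48.2 TPM in the light zone (median 20.7), 71.8 to 154 in the middle (median 97.0) and 16.2 to 39.7 in the dense zone (median 33.1). The middle zone stood apart from both others, which overlapped. Its change from light to middle, 2.25 ± 0.28 (SE, n = 2, limma, adjusted p = 0.00235), was a 4.34-fold higher mean TPM. It was the largest of all 61 members on the log2(TPM + 1) scale, while the fold of mean TPM was larger for Med29 (4.48).

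Polr2e, the largest of these shared subunits, was at 21.6 to 82.6 TPM in the light zone (median 33.6), 93.7 to 148 in the middle (median 124) and 26.1 to 48.8 in the dense zone (median 40.6). It changed by 1.71 ± 0.15 and then by -1.65 ± 0.15 (SE, n = 2, limma, adjusted p = 0.00124 and 0.007). Polr2f and Polr2l, whose profiles were the second most alike of all 1830 pairs of members in gradient 2 (Pearson R = 0.985, and 0.969 in gradient 1), peaked at fraction 9 in both gradients, between the light and the middle zone. Polr2h, with its peak at fraction 12 in both gradients, had the densest position of the group (center of sedimentation, the mean fraction number weighted by TPM over the 17 shared fractions, 12.0 in both gradients).

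Among the subunits of polymerase II alone, the stalk partners Polr2d and Polr2g differed. Polr2g (chr19:8793127-8798577, minus strand), which binds the emerging RNA, was at 10.0 to 26.1 TPM in the light zone (median 17.8), 40.4 to 86.9 in the middle (median 57.7) and 46.6 to 103 in the dense zone (median 87.7). No light library reached the others, and its change from light to dense of 2.21 ± 0.26 (SE, n = 2, limma, adjusted p = 0.00107), a 4.77-fold higher mean TPM, was the highest of all members on the log2(TPM + 1) scale. By the fold of mean TPM, Med27 (4.78) lay level with it. Polr2d was at 4.17 to 14.1 TPM in the light zone (median 7.52) and 11.3 to 25.4 in the middle (median 20.5), and in the dense zone at up to 6.68 (median 5.05), with 1 library listed at 0. Its change from middle to dense, -2.08 ± 0.29 (SE, n = 2, limma, adjusted p = 0.00775), was the lowest of all members. Its change from light to dense of -0.92 passed with an adjusted p of 0.0325 but not after quantile normalization (0.232), with narrower (0.0603) or wider zones (0.0652), or without any of the light or middle zone means or the dense zone mean of gradient 1 (0.0569 to 0.185).

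The assembly partners of polymerase II, Polr2c and Polr2j, had a common pattern. Polr2j was the member of highest mean level (122.9 TPM), at 21.7 to 126 TPM in the light zone (median 48.1), 146 to 298 in the middle (median 240) and 61.5 to 86.9 in the dense zone (median 78.2). Its middle libraries lay above those of both other zones, and it changed by 2.14 from light to middle (limma, adjusted p = 0.00114) and by -1.60 from middle to dense (0.007). Polr2c lay at 50.4 to 61.2 TPM in the middle zone, above 13.5 to 38.1 in the light and 22.3 to 38.4 in the dense zone. Polr2i, a subunit for accurate transcription, was at 68.3 to 203 TPM in the middle zone (median 125) and 24.6 to 44.5 in the dense zone (median 36.2), without overlap, and it changed by -1.79 between them (limma, adjusted p = 0.00702).

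Polymerases I and III use Polr1c and Polr1d in place of Polr2c and Polr2j, and these lay elsewhere. Polr1d, the member of second highest mean level (87.6 TPM), was at 80.3 to 199 TPM in the light zone (median 130), 51.5 to 147 in the middle (median 84.7) and 24.9 to 43.9 in the dense zone (median 29.5). The dense libraries lay below all others, and the change from light to dense was -2.01 ± 0.16 (SE, n = 2, limma, adjusted p = 0.00039). Polr1c was at 24.9 to 80.3 TPM in the light zone (median 53.9), 20.0 to 33.8 in the middle (median 25.9) and 30.5 to 54.5 in the dense zone (median 40.1). It was the only member lowest in the middle zone in both gradients, a shape that 6.82% of all genes tested had, and it was lower in the middle than in the light zone (change -0.87, limma, adjusted p = 0.0255). Its change from middle to dense of 0.62 had an adjusted p of 0.0979, and of 0.0139 with the gradient as a block.

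Polr2m (chr9:71478437-71485935, minus strand) encodes Gdown1, a substoichiometric subunit found on a form of polymerase II that depends on Mediator. Its level was 107 to 200 TPM in the light zone (median 154), 36.3 to 127 in the middle (median 63.2) and 22.5 to 28.5 in the dense zone (median 24.0). The light and dense libraries lay far apart, and light and middle overlapped. Its highest level lay between these 2 zones, at fraction 8 in both gradients (216 and 235 TPM). Its mean TPM in the dense zone was 0.156 of that in the light zone, and the change of -2.61 ± 0.14 (SE, n = 2, limma, adjusted p = 0.000301) was the lowest of all members on the log2(TPM + 1) scale. From light to middle it changed by -1.22 (limma, adjusted p = 0.00212), also the lowest on that scale. The ratio of mean TPM was lower for Cdk19, at 0.122 from light to dense and 0.380 from light to middle, against 0.459 for Polr2m in the latter. Its gradients differed little, with a Pearson R of 0.993 over the shared fractions.

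The 10 subunits of polymerase III alone were spread over the gradient. Besides Polr3a and Polr3b, no subunit was higher in the dense than in the light zone in limma, and Polr3g, Polr3gl, Polr3f and Polr3k were lower. These shares, 20.0% and 40.0%, lay near the 22.3% and 39.6% of all genes tested, and the call of Polr3f was lost without the light zone mean of gradient 1 (change -1.06, limma, adjusted p = 0.0635). Quantile normalization changed this split of 2 higher and 4 lower to 5 higher (50.0%, against 30.7% of all genes in that fit) and 3 lower (30.0%, against 29.9%). The gradient as a block gave 3 higher (30.0%, against 30.5%) and 4 lower (40.0%, against 50.0%). Polr3g and Polr3f, with Polr3c part of the subcomplex that opens the promoter, were highest in the light zone. Polr3g was at 11.6 to 22.5 TPM in the light zone (median 14.7) and 2.18 to 4.98 in the dense zone (median 3.75), without overlap, a change of -1.85 ± 0.23 (SE, n = 2, limma, adjusted p = 0.00135). From light to middle it changed by -0.99 (limma, adjusted p = 0.0176), the third lowest of the members after Polr2m and Cdk19. Its paralog Polr3gl, which takes the same place in the enzyme, was highest in the middle zone (12.2 to 30.0 TPM, median 18.8) rather than the light zone (8.17 to 23.5 TPM, median 14.3), although these libraries overlapped and the change of 0.50 had an adjusted p of 0.0735 in limma, or 0.0121 with the gradient as a block. From light to dense Polr3gl changed by -0.86 (limma, adjusted p = 0.00998), which did not pass after quantile normalization (0.0885) or without the light zone mean of gradient 1 (0.0578) or 2 (0.0725).

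In Mediator the kinase module stood at the light end. The module joins the kinase Cdk8 or Cdk19 to cyclin C (Ccnc), Med12 or Med12l, and Med13 or Med13l, the last of which tie it to the rest of Mediator. Of its 7 members, 5 were lower in the dense than in the light zone (71.4%, against 39.6% of all genes tested) and 0 were higher in limma (against 22.3%), with a median change of -1.46. At an unadjusted p under 0.05, 5 were lower and 1, Med12, was higher, against 4981 and 2844 of the 11754 genes tested. After quantile normalization 5 were lower (71.4%, against 29.9% of all genes in that fit) and 1 was higher (14.3%, against 30.7%). The 5 lower members, Cdk19, Med13, Cdk8, Med12l and Med13l, were highest in the light zone in both gradients (71.4%, against 42.7% of all genes tested). Their centers of sedimentation lay between 8.50 and 10.2 in each gradient, against medians of 12.0 and 11.7 over all members in gradients 1 and 2.

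Cdk8 was at 32.1 to 55.2 TPM in the light zone (median 46.6), 20.5 to 40.5 in the middle (median 29.3) and 8.29 to 13.6 in the dense zone (median 10.9). The dense libraries did not overlap with the others, and the change from light to dense was -1.98 ± 0.16 (SE, n = 2, limma, adjusted p = 0.000428). Its paralog Cdk19 was lower in level, at 5.05 to 11.2 TPM in the light zone (median 7.47), 1.70 to 3.97 in the middle (median 2.83) and 0.660 to 1.21 in the dense zone (median 0.852). Its zones did not overlap, its mean TPM in the dense zone was 0.122 of that in the light zone, and it changed by -2.12 ± 0.20 (SE, n = 2, limma, adjusted p = 0.000622). From light to middle Cdk19 changed by -1.14 (limma, adjusted p = 0.00698). The profiles of these kinases had a Pearson R of 0.942 in gradient 2 and 0.949 in gradient 1.

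Med13 was at 21.7 to 40.5 TPM in the light zone (median 27.8) and 5.30 to 8.80 in the dense zone (median 6.11), and Med13l at 7.28 to 18.6 (median 13.1) and 3.60 to 6.07 (median 4.58). Neither overlapped between these zones, and the mean TPM in the dense zone was 0.223 and 0.358 of that in the light zone (limma, adjusted p = 0.000668 and 0.00388). Their profiles had a Pearson R of 0.929 in gradient 2 and 0.890 in gradient 1.

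The paralogs Med12 and Med12l, which activate the kinase, had opposite profiles, with a Pearson R of -0.626 in gradient 2 and -0.675 in gradient 1. Med12l was at 5.00 to 12.0 TPM in the light zone (median 8.39) and 1.96 to 3.53 in the dense zone (median 2.24), without overlap, a change of -1.46 ± 0.25 (SE, n = 2, limma, adjusted p = 0.00405). Med12 was at 3.52 to 11.9 TPM in the light zone (median 7.61), 9.10 to 15.2 in the middle (median 11.6) and 11.1 to 17.9 in the dense zone (median 14.3), so that light and dense overlapped a little over both gradients together. Within a gradient Med12 did not overlap, at 5.90 to 11.9 TPM (light) and 16.7 to 17.9 TPM (dense) in gradient 1 and 3.52 to 7.98 and 11.1 to 12.0 TPM in gradient 2. Its change of 0.88 ± 0.32 (SE, n = 2) had an adjusted p of 0.0548 in limma. With the gradient as a block the adjusted p was 0.000823, after quantile normalization 0.006 and with narrower zones 0.0394, and without the dense zone mean of gradient 2 it was 0.037. Med12 was highest in the dense zone of both gradients. The exons of Med12 overlap an annotated gene of the same strand, Gm21986, and how reads shared between them were counted is not given in the sources used here.

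Ccnc had the smallest change of the module from light to dense, at 10.7 to 21.1 TPM in the light zone (median 13.5), 10.4 to 17.6 in the middle (median 13.9) and 7.56 to 13.7 in the dense zone (median 10.0). All zones overlapped, the change from light to dense was -0.46 (limma, adjusted p = 0.0997, or 0.0344 with the gradient as a block), and the profiles of the gradients had a Pearson R of 0.492.

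**Figure D3:**
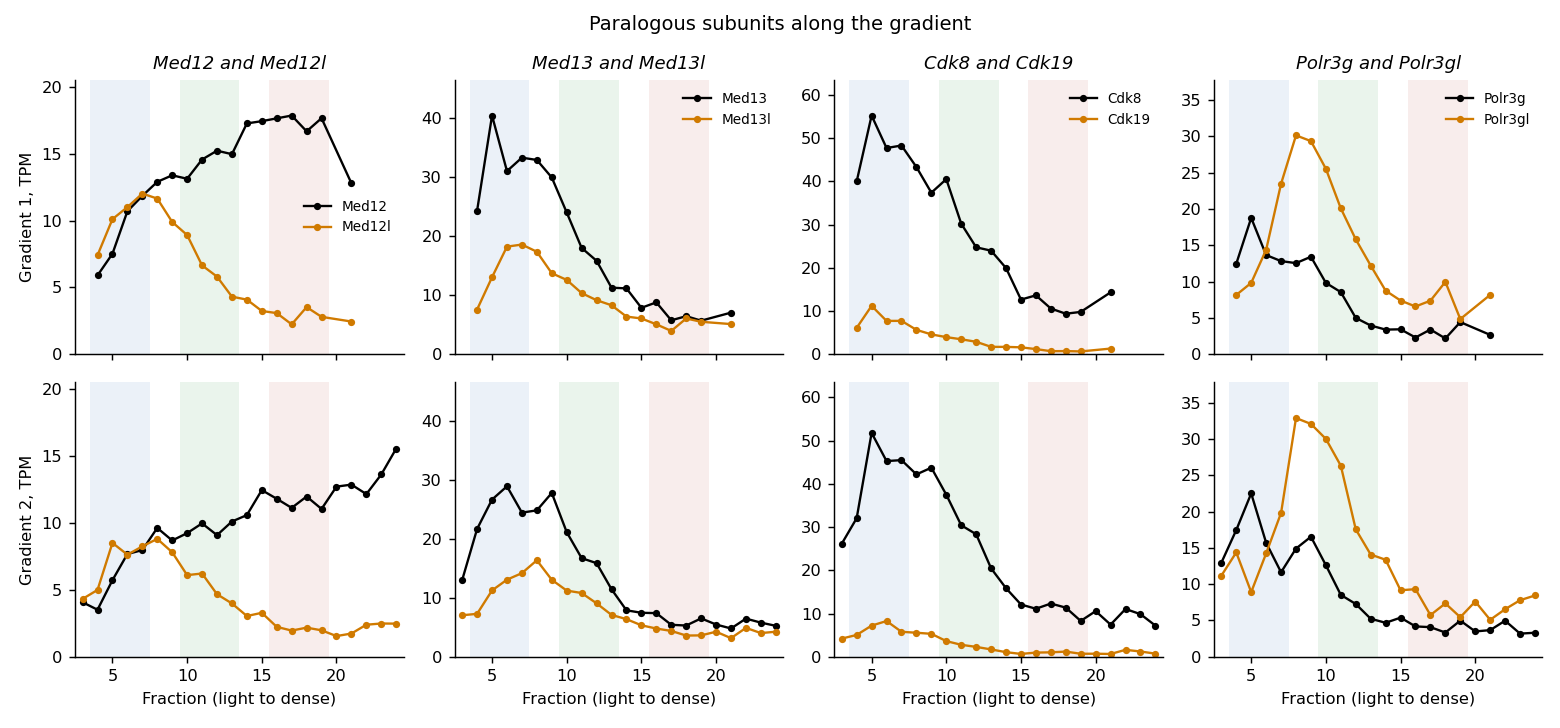
TPM against fraction number (light to dense) for 4 pairs of paralogous subunits, in gradient 1 (top) and gradient 2 (bottom), with 1 library a point and the light, middle and dense zones shaded. Med12 and Med12l part after fraction 8, the pairs Med13 with Med13l and Cdk8 with Cdk19 fall together, and Polr3gl peaks at fraction 8 in both gradients while Polr3g peaks at fraction 5.

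By the median center of sedimentation, the head (12.5), middle (11.8) and tail (12.9) modules of Mediator lay denser than the kinase module (9.77). Their members overlapped, as the middle module went down to 10.2 and the kinase module up to 13.1. Of the 9 subunits of the middle module, 8 were highest in the middle zone of both gradients (88.9%, against 24.4% of all genes tested). In limma 4 were higher there than in the light zone (44.4%, against 23.5%) and 6 were lower in the dense than in the middle zone (66.7%, against 22.5%). In the blocked fit Med7 was also higher (change 0.65, limma, adjusted p = 0.00468) and Med1 lower (change -0.43, limma, adjusted p = 0.00937) in the middle than in the light zone. Med21, a small subunit that pairs with Med7, was at 6.92 to 30.3 TPM in the light zone (median 10.9), 18.3 to 52.1 in the middle (median 30.8) and 5.00 to 14.7 in the dense zone (median 9.56). Middle and dense libraries did not overlap, and Med21 changed by -1.74 between them (limma, adjusted p = 0.00775). The 1 subunit of this module highest in the light zone was Med1, which binds nuclear receptors. Med1 was at 36.3 to 67.8 TPM in the light zone (median 50.6) and 13.8 to 24.9 in the dense zone (median 18.5), and with Med13 it was among the 3 most alike pairs of gradient 2 (Pearson R = 0.985, and 0.970 in gradient 1).

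The backbone subunit Med14, which holds the modules together, was at 9.92 to 18.3 TPM in the light zone (median 13.4), 10.9 to 20.0 in the middle (median 15.0) and 4.97 to 7.49 in the dense zone (median 5.62). Light and middle overlapped and both lay above the dense zone. Its change from light to dense was -1.10 ± 0.18 (SE, n = 2, limma, adjusted p = 0.0034), and from light to middle 0.10 (adjusted p = 0.672).

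Of the 7 head subunits, 4 were higher in the middle than in the light zone (57.1%, against 23.5% of all genes tested) and 0 were lower (against 24.1%), and 2, Med17 and Med6, were higher in the dense than in the light zone (28.6%, near the 22.3% of all genes). In the blocked fit Med22 was also higher in the middle than in the light zone (change 0.39, limma, adjusted p = 0.0143), and Med11 in the dense than in the light zone (change 0.39, limma, adjusted p = 0.0169). No head subunit was lower in the middle zone at an unadjusted p under 0.05 either (0 of 7, against 3340 of the 11754 genes tested). Med6 was at 3.88 to 14.8 TPM in the light zone (median 7.54) and 24.6 to 48.0 in the dense zone (median 27.8), without overlap, a change of 1.88 ± 0.24 (SE, n = 2, limma, adjusted p = 0.00131). After quantile normalization 4 head subunits were higher (57.1%, against 30.7% of all genes in that fit) and 0 lower (against 29.9%) in the dense than in the light zone. Med22 was the 1 head subunit lower in the dense than in the light zone (change -0.70, limma, adjusted p = 0.0459). That call was lost after quantile normalization (0.0633), with wider zones (0.119), without a trend in eBayes (0.05), and without each of the light and middle zone means and the dense zone mean of gradient 2 (0.0662 to 0.226).

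Of the 5 tail subunits, which bind activators, 2 were higher in the dense than in the light zone in limma (40.0%, against 22.3% of all genes tested) and 0 were lower (against 39.6%). At an unadjusted p under 0.05, 0 tail subunits were lower too, against 4981 of the 11754 genes tested. In the blocked fit, and after quantile normalization, 4 tail subunits were higher (80.0%, against 30.5% and 30.7% of all genes in these fits). Med24 was at 2.57 to 8.69 TPM in the light zone (median 4.17), 11.9 to 20.4 in the middle (median 15.1) and 13.5 to 23.2 in the dense zone (median 18.1), with the light libraries apart from the others, and it changed by 1.73 ± 0.29 (SE, n = 2, limma, adjusted p = 0.00375). Of the 4 metazoan subunits, 2 were higher (against 22.3% of all genes tested) and 2 lower (against 39.6%) in the dense than in the light zone, and after quantile normalization 2 were higher (against 30.7%) and 1 lower (against 29.9%). Med27 was at 2.60 to 5.44 TPM in the light zone (median 4.72), 7.14 to 16.6 in the middle (median 10.6) and 11.7 to 31.8 in the dense zone (median 19.1). It changed by 1.96 ± 0.41 from light to dense (SE, n = 2, limma, adjusted p = 0.00813, and 0.0668 without the light zone mean of gradient 2), a 4.78-fold higher mean TPM. Med29 had the second largest change from light to middle, 2.24 ± 0.24 (SE, n = 2, limma, adjusted p = 0.0018), from 1.32 to 13.7 TPM (median 6.30) to 21.9 to 41.3 (median 30.3), without overlap. The call of Med29 in the dense against the light zone was lost without the light zone mean of gradient 1 (change 0.88, limma, adjusted p = 0.0901). Med28 and Med30 were lower in the dense than in the light zone (changes -1.16 and -1.14), the call of Med30 being lost after quantile normalization (0.061) and without the light zone mean of gradient 2 (0.0632), and they were the most alike of all pairs in gradient 2, with a Pearson R of 0.987 there and 0.985 in gradient 1. The least alike pair of gradient 2 was Polr1b and Cdk19, at -0.905 there and -0.900 in gradient 1.

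**Figure D4:**
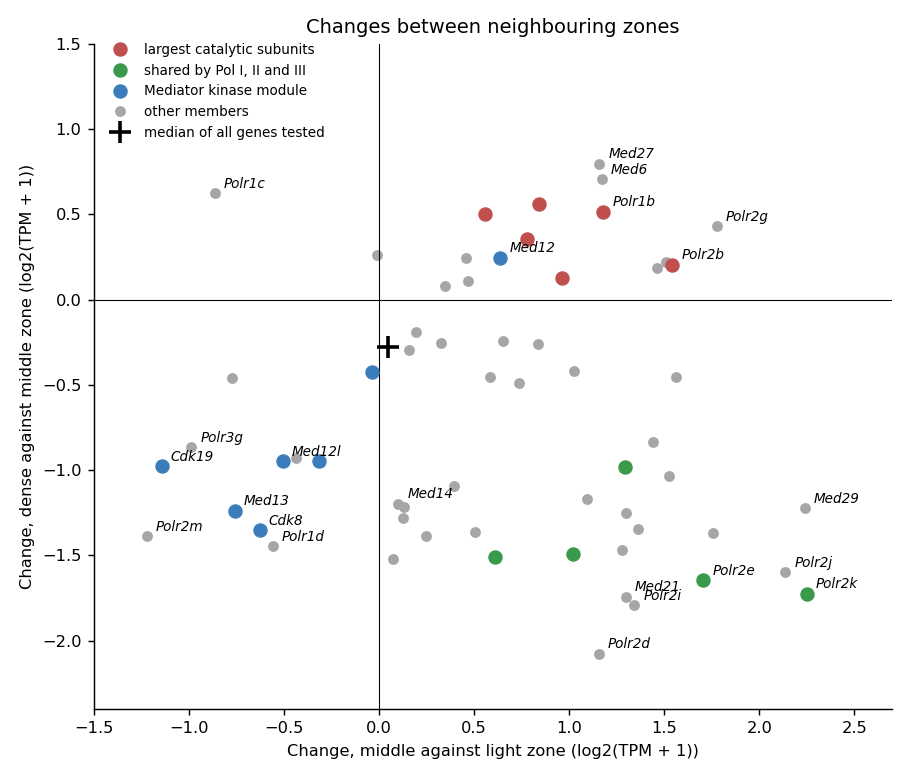
Change from the light to the middle zone (x axis) and from the middle to the dense zone (y axis) for each of the 61 members, as differences of mean log2(TPM + 1) over 2 gradients, with the median of all genes tested as a cross (0.05 and -0.28). The 5 shared polymerase subunits lie at the lower right, the kinase module except Med12 at the lower left, and the 6 largest catalytic subunits at the upper right. Both axes use the middle zone means, so the points are not independent between the axes.

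Most profiles were repeated between the gradients. The Pearson R between the gradients over the 17 shared fractions had a median of 0.922 over the members, with 38 of 61 above 0.9 (62.3%), against a median of 0.899 and 49.8% over all genes tested. The lowest were Med23 (0.392), Med26 (0.427) and Med20 (0.457). Med26, which links Mediator to elongation factors, was at 4.10 to 8.25 TPM in the light, 5.25 to 9.72 in the middle and 3.51 to 9.75 in the dense zone, and none of these members passed limma in any comparison. With the gradient as a block Med23, a tail subunit that binds activators, passed in the dense against the light zone (change 0.57, adjusted p = 0.0246). The highest level of a member was at the same fraction in both gradients for 27 of 61, within 1 fraction for 45 and more than 3 apart for 13. Each peak was taken over all fractions of its gradient. Gradient 1 has no fractions 22 to 24, where 6 members peaked in gradient 2, so these could not have the same peak. The share of all genes with a shared peak was not computed. In gradient 2, whose bottom fractions 22 to 24 were sequenced, 15 members (24.6%) had a higher mean there than in the dense zone, against 35.7% of all genes tested.

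Members of the different zones differed in the lengths of their transcripts, taken from 1 coding transcript a gene in GENCODE M21 (61 of 61 members and 92% of the genes tested had one). The 13 members highest in the dense zone had a median coding length of 3399 nt and a median 3′ UTR of 381 nt, and the coding sequence made up a median of 74.4% of the transcript. The 32 members highest in the middle zone had short coding sequences (median 606 nt) and short 3′ UTRs (median 534 nt). The 11 highest in the light zone had a median coding length of 1392 nt, a median 3′ UTR of 2196 nt and a coding share of 49.9%. The coding lengths of the polymerase and Mediator subunits lay in opposite orders. Polymerase subunits highest in the dense zone had a median of 3522 nt (7 genes) and those highest in the light zone 948 nt (5 genes), while Mediator subunits had 2157 nt (6 genes) and 5596 nt (6 genes). The 3′ UTRs were longer in the light than in the dense zone for both, at medians of 963 and 416 nt for the polymerases and 3272 and 304 nt for Mediator. Over all genes tested the medians were 1554, 1047 and 1359 nt of coding sequence and 669, 732 and 1604 nt of 3′ UTR in the dense, middle and light zones.

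Across members, the coding length had a Spearman rho of 0.60 with the change from middle to dense (0.28 over all genes tested) and of -0.28 with the change from light to middle (-0.04). With the change from light to dense the rho was 0.53 for the polymerase subunits (n = 28) and -0.08 for the Mediator subunits (n = 33). The length of the 3′ UTR had a rho of -0.54 with the change from light to middle (-0.36 over all genes) and of 0.09 with the change from middle to dense (-0.10). The coding share of the transcript had a rho of 0.45 with the change from light to dense (0.36 over all genes). Genes are not independent replicates and share all libraries, so these values are descriptions. The paralogs show both ends, since Med12 has a 3′ UTR of 238 nt and a coding share of 96.5%, while Med12l, of similar coding length (6570 and 6555 nt), has a 3′ UTR of 3936 nt and a coding share of 59.6%. Polr2g, Med6 and Med27 had short coding sequences for dense members (516, 738 and 933 nt), and Polr1a had a long 3′ UTR of 3963 nt.

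**Figure D5:**
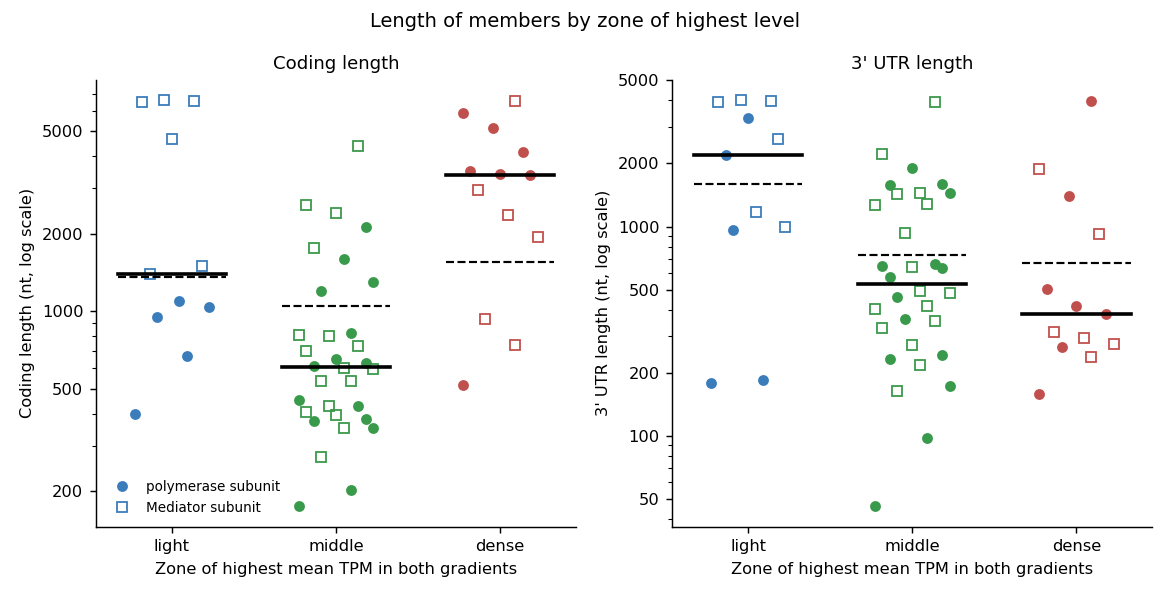
Coding length (left) and 3′ UTR length (right) of the members, in nt on a log axis, by the zone in which the mean TPM was highest in both gradients (11 light, 32 middle, 13 dense). Filled dots are polymerase subunits and open squares Mediator subunits, solid lines are the medians of the members and dashed lines those of all genes tested. Over all members, the median coding length is highest in the dense zone (3399 nt) and the median 3′ UTR in the light zone (2196 nt), but the Mediator subunits of the light zone have longer coding sequences (median 5596 nt) than those of the dense zone (2157 nt).

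The genes that work with these enzymes were placed in lists. In the dense against the light zone, 22.3% of all genes tested were higher and 39.6% lower in limma. Of 33 general transcription factors of polymerase II, 13 were higher (39.4%) and 6 lower (18.2%). Gtf2b, which positions polymerase II at the start site, rose from 8.48 and 8.65 TPM in the light zone of gradients 1 and 2 to 82.9 and 57.3 TPM in the dense zone, and Taf13, a subunit of TFIID, fell from 42.9 and 41.1 TPM to 5.59 and 6.03 TPM. Of 28 elongation and pausing factors, 15 were higher (53.6%) and 4 lower (14.3%), from Eaf2 (change -2.68) to Paf1 (2.59). Of 12 Integrator subunits, 6 were higher (50.0%) and 0 lower in limma, between Ints8 (-0.51, adjusted p = 0.08) and Ints4 (2.36). At an unadjusted p under 0.05, 0 of them were lower too, against 4981 of the 11754 genes tested. Of 10 assembly factors of the polymerases, 6 were higher (60.0%) and 1 lower (10.0%). Ruvbl1, an ATPase of the assembly chaperone, was at 6.98 and 8.03 TPM in the light and 61.1 and 52.8 TPM in the dense zone, while Uri1, of the same assembly machinery, was at 39.8 and 39.5 TPM in the light and 7.41 and 6.01 TPM in the dense zone.

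For the factors of polymerase I, 2 of 7 were higher (28.6%, against 22.3% of all genes tested) and 1 lower (14.3%, against 39.6%), with Ubtf (1.46) and Taf1d (-1.96) at the ends. For those of polymerase III, 2 of 16 were higher (12.5%) and 3 lower (18.75%), between Gtf3a (-1.58) and Gtf3c1 (1.68). The mitochondrial transcription genes split evenly, 2 higher and 2 lower (50.0% each), with the polymerase Polrmt at 2.33 and Tfb2m at -1.38. Of the 4 listed polymerase subunits with other symbols, 1 was lower and 0 higher in limma, Crcp (change -0.90, adjusted p = 0.0087), with 0 higher at an unadjusted p under 0.05, and Cd3eap was at the upper end (0.54, adjusted p = 0.211). With the gradient as a block the counts higher and lower were 15 and 14 for the general factors, 19 and 7 for elongation, 9 and 1 for Integrator, 7 and 2 for assembly, 3 and 2 for polymerase I, 7 and 6 for polymerase III, and 0 and 2 for subunits with other symbols. Of all genes tested, 22.3% were higher and 39.6% lower in this comparison without the block, and 30.5% and 50.0% with it. After quantile normalization the counts were 16 and 5 for the general factors, 17 and 4 for elongation, and 9 and 0 for Integrator. They were 7 and 1 for assembly, 3 and 1 for polymerase I, 7 and 2 for polymerase III, and 1 and 1 for subunits with other symbols. The shares of all genes in that fit were 30.7% and 29.9%.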

How the data were processed

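RNA of sucrose gradient fractions of mouse liver was measured in 39 libraries. Ribosomal RNA was depleted, libraries kept the strand, and the authors quantified reads with Kallisto against mm10 RefSeq transcripts. For each gradient they deposited a table of TPM by gene symbol. The version of Kallisto, its strand setting and the summing to genes are not given in the sources used here. TPM holds no counts, so depth per library and counting error are unknown, and no count model was used. Whether the exons of overlapping genes could share reads was checked: 4 members overlap an annotated gene of the same strand and 25 of the opposite strand.

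From the deposited TPM, log2(TPM + 1) was averaged over the 4 fractions of a zone and gradient, and 6 zone means were fitted in limma with a trend in eBayes over the 11754 genes with a mean of at least 1 TPM in the 24 zone libraries. Adjusted p-values are Benjamini-Hochberg over all of these genes, with a threshold of 0.05. The fit was run on simulated zone means with independent noise, so that run cannot show how it handles paired zones. All zones of 1 gradient were loaded from 1 homogenate, which pairs them: deviations from the zone means correlated across genes at r = 0.665 (light and middle), 0.540 (light and dense) and 0.798 (middle and dense). The gradient as a block is therefore given beside a count or change where it alters its call. Alternatives were the pseudocount (0.1), the filter (none or 10 TPM), quantile normalization, a rescaling that leaves out the 50 genes of highest mean TPM, narrower and wider zones, no trend, and each zone mean left out, where the lone zone mean is assumed to vary like the others.

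The members, gene lists and tests were chosen with earlier results of these data known. Named with values are the largest catalytic subunits, the kinase module and Med14, the 6 highest and 6 lowest changes from light to dense, the 3 members of highest mean TPM, the 3 with the lowest R between gradients, the 3 largest rises and falls past the threshold in the other comparisons, the most alike pairs, and the ends of each list. Polr1c, Polr2c, Polr2e, Polr2f, Polr2h, Polr2l, Polr3gl, Polr3f, Polr3k, Med1, Med7, Med11, Med17, Med22, Med28 and Med30 were added after their values were seen. Gene coordinates and lengths are from GENCODE M21 for GRCm38, the assembly of mm10, with the APPRIS principal and then the longest coding transcript. No sequences were used here, and 1 marker list is not reported here. Fits used limma 3.58.1 in R 4.3.3, and summaries and plots used pandas 2.3.3, NumPy 2.4.6, SciPy 1.17.1 and Matplotlib 3.10.9 in Python 3.11.15.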

Additional observations from a re-analysis of the deposited data

How the results depend on the processing

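With the gradient as a replicate block, members higher rose in number from 15 to 25 (dense against light) and from 0 to 7 (dense against middle), and no other count of members called moved by over 1.5 times. Quantile normalization gave 26 higher members and a median of 0.37 (dense against light), a median of 0.78 (middle against light), and 4 higher with a median of -0.55 (dense against middle). A filter of 10 TPM left 12 lower members (dense against light), 5 lower with a median of 0.99 (middle against light), and a median of -1.04 (dense against middle). Narrower zones gave 5 lower members with a median of 0.90 (middle against light) and a median of -1.05 (dense against middle), and wider zones 5 lower with a median of 0.50, and 1 higher with a median of -0.83. Rescaling without the 50 most abundant genes gave medians of 0.54 (middle against light) and -0.86, with 1 higher (dense against middle), and a pseudocount of 0.1 medians of 0.72 and -1.02. Leaving out 1 zone mean gave, for dense against light, 9 to 17 higher and 14 to 18 lower members and medians of -0.12 to 0.24, for middle against light 15 to 32 higher, 2 to 8 lower and medians of 0.62 to 0.84, and for dense against middle 0 to 2 higher, 0 to 29 lower and medians of -0.97 to -0.79. The median center of sedimentation, 11.8, was 12.8 over all fractions of gradient 2, which holds denser fractions, and 11.7 to 12.0 in each gradient alone. With a zone mean left out, the number of all genes called moved as well. Why values other than the center moved was not tested. Of the 34 members past the threshold in dense against light, 15 kept their call in every alternative, and 5 more in every alternative but the filter of 10 TPM, under which they were not tested. None changed sign where tested. The rho of coding length with the change from light to dense was 0.184, while the whole length gave -0.0306 for the longest annotated transcript and -0.039 for the transcript used. The median R between gradients, 0.922, was 0.852 and 0.860 with the fractions of gradient 2 shifted by 1. With 2 gradients and no read counts, small changes of members of low level could not be resolved.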
